A study of Homo sapiens with 6 samples.

Results

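The genes described here are 9 genes of MHC class I antigen presentation: the heavy chains HLA-B, HLA-C and HLA-E, the light chain B2M, the peptide transporter subunits TAP1 and TAP2, the loading factor TAPBP, the peptide trimming enzyme ERAP1 and the transcriptional activator NLRC5. They were taken by name from the gene tables, which list 60616 gene identifiers, and each name matched 1 identifier. All 9 were among the 16719 genes tested. The rule itself used names and no levels, but the members were chosen with earlier results of these data known. RNA was sequenced from 12Z, an immortalized wild-type line of human endometriotic cells, in 3 libraries from cells given DMSO alone (vehicle) and 3 from cells given frankincense extract, a preparation of tree resin, at 70 ug/mL in DMSO for 12 h. Both groups grew in medium with 10% charcoal-stripped serum, and each library used 1.5 ug of total RNA. 12Z is 1 cell line grown without immune cells, so the values describe presenting cells only. Nothing in the labels says that the replicates were separate cultures, so each p-value reflects only how these libraries vary, which may be technical variation.

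MHC class I molecules show short peptides from inside the cell to CD8 T cells and to natural killer cells. A heavy chain pairs with B2M (beta-2-microglobulin) in the endoplasmic reticulum, where the TAP1 and TAP2 heterodimer pumps in peptides cut by the proteasome, ERAP1 trims them, and tapasin, the product of TAPBP, bridges the transporter to the empty heavy chain together with the chaperones calreticulin and ERp57. Most of these genes are induced by interferon, and NLRC5 is the activator that assembles on class I promoters with RFX, CREB and NF-Y factors.

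The members did not move as 1 block. Tapasin mRNA fell 1.94-fold and ERAP1 mRNA rose 1.94-fold, TAP2 rose 1.26-fold, and B2M, NLRC5, HLA-E and HLA-B fell by smaller amounts (1.31-fold, 1.36-fold, 1.27-fold and 1.19-fold) on the count scale. HLA-C and TAP1 did not pass the test. The chaperones that work beside tapasin, CANX, PDIA3 and CALR, rose 3.06-fold, 1.80-fold and 1.54-fold.

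The promoters of 5 of these genes are shown first because interferon and NF-kappaB sites are the regulatory elements by which class I genes are known to be switched together, while the RNA of the genes below them went different ways. Each window runs from 250 bases before to 50 bases after a RefSeq start (GRCh38.p14), and 7 of the 9 members have at least 1 window; HLA-E and NLRC5 have none in the table used. Capitals mark matches on either strand to the interferon-stimulated response element (GAAA, any 2 bases, GAAA), to a tighter form with a spacer of 1 base, or to the NF-kappaB consensus.
TAPBP, lower, minus strand, chr6:33314029-33314328: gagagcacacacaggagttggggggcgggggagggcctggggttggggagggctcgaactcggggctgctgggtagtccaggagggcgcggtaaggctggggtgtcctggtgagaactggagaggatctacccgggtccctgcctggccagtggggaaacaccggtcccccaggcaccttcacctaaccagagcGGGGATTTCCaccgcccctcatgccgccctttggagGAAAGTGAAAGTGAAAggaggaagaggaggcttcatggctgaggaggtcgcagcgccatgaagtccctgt
B2M, lower, plus strand, chr15:44711267-44711566: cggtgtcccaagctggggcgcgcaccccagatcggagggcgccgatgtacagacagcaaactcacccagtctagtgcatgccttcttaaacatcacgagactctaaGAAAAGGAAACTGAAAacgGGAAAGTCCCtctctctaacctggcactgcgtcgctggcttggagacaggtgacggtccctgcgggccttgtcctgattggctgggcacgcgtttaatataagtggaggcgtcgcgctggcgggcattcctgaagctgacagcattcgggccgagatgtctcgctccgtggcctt
HLA-B, lower on the count scale, minus strand, chr6:31357130-31357429: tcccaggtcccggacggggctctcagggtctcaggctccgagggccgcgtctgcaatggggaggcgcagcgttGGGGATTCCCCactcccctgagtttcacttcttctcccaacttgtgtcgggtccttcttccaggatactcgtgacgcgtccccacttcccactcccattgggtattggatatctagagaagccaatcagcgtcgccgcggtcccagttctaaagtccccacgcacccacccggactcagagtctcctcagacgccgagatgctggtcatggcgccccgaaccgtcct
TAP1, not called on the count scale, minus strand, chr6:32853655-32853954: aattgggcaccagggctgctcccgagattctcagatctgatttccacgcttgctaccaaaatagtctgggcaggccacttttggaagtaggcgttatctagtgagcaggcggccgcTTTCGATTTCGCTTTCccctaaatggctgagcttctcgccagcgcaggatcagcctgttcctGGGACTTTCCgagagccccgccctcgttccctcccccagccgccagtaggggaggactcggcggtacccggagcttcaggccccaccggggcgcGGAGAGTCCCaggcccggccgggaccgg
TAP2, higher, minus strand, chr6:32838690-32838989: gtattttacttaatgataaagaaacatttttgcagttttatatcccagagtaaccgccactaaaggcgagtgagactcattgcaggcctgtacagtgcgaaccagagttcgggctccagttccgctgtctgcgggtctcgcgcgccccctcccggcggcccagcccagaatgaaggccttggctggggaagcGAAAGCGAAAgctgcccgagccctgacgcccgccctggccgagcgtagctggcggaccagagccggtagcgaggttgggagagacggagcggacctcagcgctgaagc

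The response element with a spacer of 2 bases was found in windows of B2M, TAP1, TAP2, TAPBP and ERAP1, against 3.57% of 35116 promoter windows of the same length. In TAPBP, B2M and TAP1 it occurs as a pair of overlapping copies, which begin at -20 and -14 from the start in TAPBP, at -144 and -138 in B2M and, on the other strand, at -134 and -128 in TAP1. TAP2 has 1 copy at -58 and ERAP1 1 copy at 3, just inside the transcript. Genes with the element were therefore among those that rose (TAP2, ERAP1), those that fell (TAPBP, B2M) and those that were not called (TAP1). Windows of HLA-B and HLA-C held no match to this 10-base form. Looser variants of the element were not searched, so these windows may still hold one. The tighter form, present in 3.12% of all windows, matched only the second ERAP1 window among the members. The NF-kappaB consensus was present in windows of B2M, ERAP1, HLA-B, HLA-C, TAP1 and TAPBP, against 11.27% of all windows; in HLA-B it matches in overlapping registers from -177, and in HLA-C once at -172. The CCAAT box (CCAAT), the letters of NF-Y binding, occurs in windows of HLA-B, HLA-C, B2M, TAP1 and ERAP1 and in 34.61% of all windows. These letters describe the reference sequence, and no binding was measured.

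The libraries held 22615150 to 27615196 expected counts, at which 3 counts in a single library equal 0.109 to 0.133 CPM (counts scaled by library size); this limit reflects counting error alone. Replicates were close (biological coefficient of variation of 6.42%). Frankincense replicate 3 stood apart from the other treated libraries on the next principal component after the one that separates the groups (27.6 against -7.99 and -19.95), and it had the highest CPM of the treated libraries for HLA-B, HLA-C, HLA-E, TAP1, TAP2, TAPBP, ERAP1 and NLRC5. Values without it are given where it matters. The epithelial keratins KRT8 and KRT18 were at 772 ± 7.03 and 661 ± 8.63 TPM under vehicle (RSEM's length-scaled transcript share; SD, n = 3) and CDH1, E-cadherin, at 0.133 ± 0.085 TPM, so the last marker was nearly absent. Of 4 dendritic cell markers 0 could be tested, and their summed level was 0 to 0.02 TPM. Of 12 leukocyte markers, CD3E, CD3D and MS4A1 were listed at 0 in all libraries. PTPRC, the pan-leukocyte CD45 gene, was at 0.17 ± 0.044 and 0.113 ± 0.012 TPM. The list summed to 31.1 to 34.3 TPM under vehicle and 35.5 to 64.3 TPM after extract, mostly from CD68. By counts 1 of its genes (CD14) was lower and 0 were higher. In TPM, CD68 was higher (log2 difference of 0.60, adjusted p = 0.0243 with limma). Defining markers of T cells, B cells and dendritic cells were thus at or near 0.

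A gene was called at an adjusted p under 0.05, here and below from the quasi-likelihood test of edgeR, adjusted by Benjamini-Hochberg over all tested genes. By this rule 7 of the 9 members were called, 2 higher and 5 lower, where 62.9% of all tested genes were called, 31.9% higher and 31.0% lower. The share called among members is near that background. Their median log2 change was -0.25, against -0.0016 over all genes. CPM values did not overlap between groups for 7 members, and the same held for 67.5% of all tested genes. In bulk RNA, fewer cells with a transcript and less transcript per cell cannot be told apart.

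**Figure D1:**
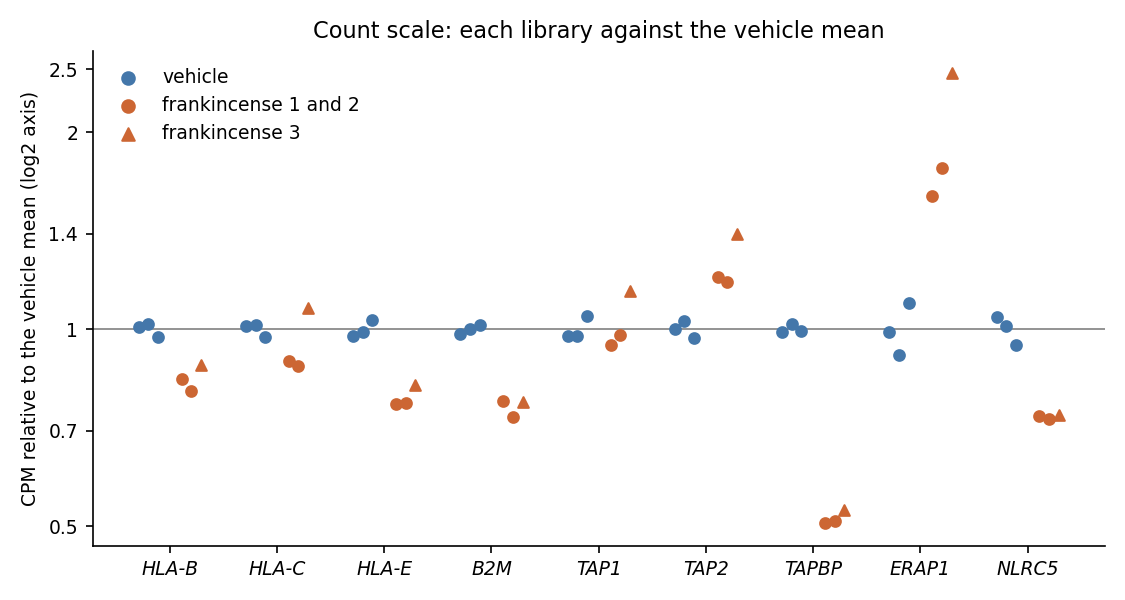
CPM of each gene in each library divided by its mean over the 3 vehicle libraries (log2 axis); circles are libraries and the triangle is frankincense replicate 3. TAPBP lies near 0.5 in every treated library and ERAP1 furthest above 1, with frankincense replicate 3 the highest for most genes.

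Of the heavy chains, HLA-B and HLA-C present peptides to CD8 T cells and HLA-E shows leader peptides to natural killer cell receptors. HLA-B (ENSG00000234745, GRCh38 chromosome 6, 31269491 to 31357188, minus strand) stood at 1208, 1218 and 1166 CPM under vehicle and at 1004, 963 and 1057 CPM after extract. Every treated library was below every vehicle library, and the log2 change of -0.25 ± 0.059 (SE) was called (adjusted p = 0.00211 in edgeR). HLA-E (ENSG00000204592, chromosome 6, 30489467 to 30494205, plus strand) went from 237, 241 and 252 CPM to 187, 188 and 200 CPM, a log2 change of -0.35 ± 0.055 (edgeR adjusted p = 7.06e-05), again with no overlap. HLA-C (ENSG00000204525, chromosome 6, 31268749 to 31272130, minus strand) was at 537, 538 and 516 CPM under vehicle and at 475, 466 and 571 CPM after extract. Its first 2 treated libraries lay below the vehicle range and the third above it, so the change of -0.07 ± 0.074 was not called (edgeR adjusted p = 0.404). Without frankincense replicate 3 it was -0.16 ± 0.037 and called lower (edgeR adjusted p = 0.000585), so that library decides the call for HLA-C.

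B2M encodes the light chain shared by all class I molecules and was by far the most abundant member. It (ENSG00000166710, chromosome 15, 44711487 to 44718877, plus strand) was at 3123, 3169 and 3218 CPM under vehicle and at 2463, 2326 and 2453 CPM after extract. The groups were well apart, and B2M fell by 0.39 ± 0.059 on the log2 scale (edgeR adjusted p = 4.02e-05), or to 0.762 of its vehicle level.

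TAP1 and TAP2 form the pump as a heterodimer; TAP2 mRNA rose and TAP1 mRNA was not called. TAP2 (ENSG00000204267, chromosome 6, 32821833 to 32838780, minus strand) was at 52.2, 53.5 and 50.5 CPM under vehicle and at 62.6, 61.4 and 72.8 CPM after extract. All treated libraries were higher, with a log2 change of 0.33 ± 0.067 (edgeR adjusted p = 0.00053). TAP1 (ENSG00000168394, chromosome 6, 32845209 to 32853978, minus strand) was at 91.7, 91.7 and 98.2 CPM under vehicle and at 88.9, 92.0 and 107 CPM after extract. Its groups overlapped, and the change of 0.03 ± 0.067 was not called (edgeR adjusted p = 0.687). The sign for TAP1 was negative without frankincense replicate 3 (-0.04) and with upper-quartile scaling (-0.01). TAP1 lay above TAP2 in each library, by a TPM ratio of 2.93, 2.85 and 3.39 under vehicle and 2.28, 2.37 and 2.13 after extract. The 2 groups of ratios did not overlap (log2 difference of -0.43, exact permutation p = 0.1, two-sided, the smallest that 3 against 3 libraries allow).

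Tapasin holds the empty heavy chain at the transporter and edits its peptides. TAPBP (ENSG00000231925, chromosome 6, 33299694 to 33314387, minus strand) had the largest fall of the members, from 202, 208 and 203 CPM to 103, 104 and 108 CPM. The spread within each group was a small part of the gap, and the log2 change was -0.96 ± 0.051 (edgeR adjusted p = 8.6e-10). Only 8.0% of tested genes had a lower log2 change, and 86.2% had a smaller absolute one. TAPBPL, a tapasin-related editor of peptides, was at -0.06 ± 0.10 (edgeR adjusted p = 0.607) on 8.79 ± 0.53 and 10.5 ± 2.21 TPM.

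ERAP1, an aminopeptidase that trims peptides to the length class I molecules bind, had the largest rise. It (ENSG00000164307, chromosome 5, 96760810 to 96808100, minus strand) went from 14.9, 13.8 and 16.5 CPM to 24.1, 26.6 and 37.1 CPM. All treated libraries were above all vehicle libraries but spread among themselves, and the log2 change was 0.96 ± 0.17 (edgeR adjusted p = 0.00185). Frankincense replicate 3 lay 0.55 log2 units above the mean of the other treated libraries, an excess larger than that of 96.6% of tested genes, and the change was 0.76 ± 0.080 without it. ERAP1 was also the member with the fewest reads, 1122 counts over the vehicle libraries and 2159 over the treated ones. ERAP2, its partner enzyme with another peptide preference, fell by 0.64 ± 0.11 (edgeR adjusted p = 0.00013) from 2.56 ± 0.39 to 2.06 ± 0.34 TPM, opposite to ERAP1 on the count scale; it was not called in TPM (limma adjusted p = 0.176).

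NLRC5 (ENSG00000140853, chromosome 16, 56989485 to 57083531, plus strand), the activator of class I promoters, was at 50.42, 48.95 and 45.73 CPM under vehicle and at 35.6, 35.3 and 35.8 CPM after extract. The treated libraries agreed closely and all lay below the vehicle range, with a log2 change of -0.44 ± 0.059 (edgeR adjusted p = 1.2e-05). In the same libraries the heavy and light chains were lower (HLA-B, HLA-E, B2M) or not called (HLA-C), and the loading genes were lower (TAPBP), higher (TAP2, ERAP1) or not called (TAP1).

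Per transcript length, the members span a wide range of levels. Under vehicle the order in TPM was B2M (5330 to 5581), HLA-B (1323 to 1381), HLA-C (520 to 551), HLA-E (122 to 130), TAPBP (76.4 to 77.7), TAP1 (64.2 to 67.8), NLRC5 (28.3 to 30.5), TAP2 (20.01 to 22.77) and ERAP1 (3.24 to 4.41), and no neighbouring ranges overlapped. After extract 2 pairs changed places: TAP1 (72.3 to 88.9) stood above TAPBP (44.1 to 53.1), and TAP2 (31.6 to 41.7) above NLRC5 (24.8 to 28.2), again without overlap between neighbours. Tapasin mRNA thus went from just above TAP1 mRNA to below it in every library.

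**Figure D2:**
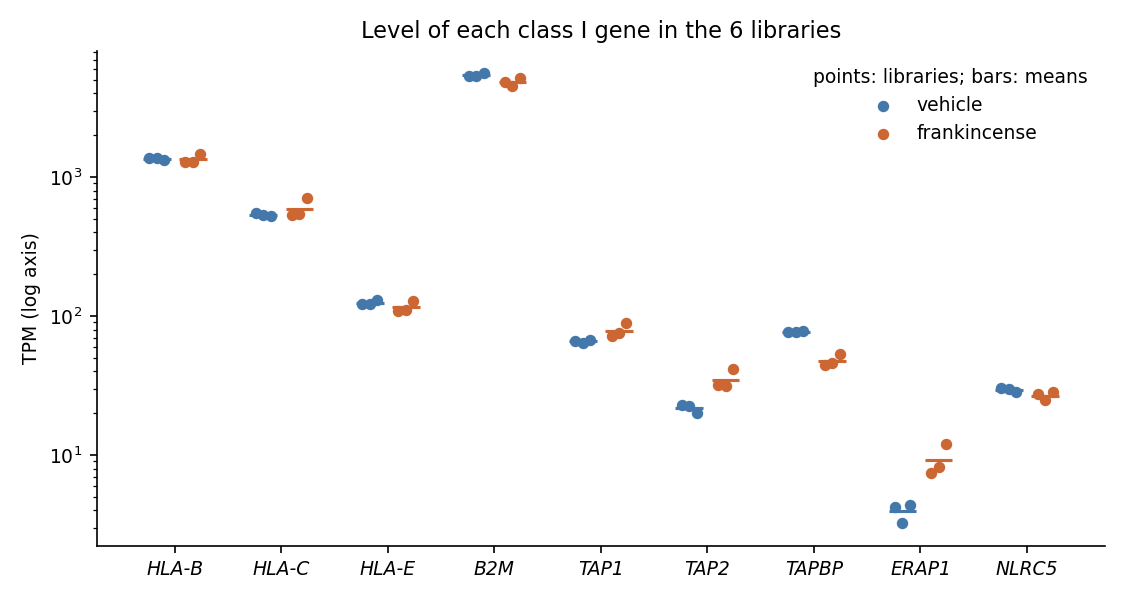
TPM of each gene in each library on a log axis, with bars for the mean of 3 libraries per group. B2M is highest and ERAP1 lowest in both groups, and TAP1 stands above TAPBP only after extract.

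The count and TPM scales differ for several members. Over all tested genes the median log2 difference was 0.20 in TPM and -0.0016 in counts. Tested as log2(TPM + 1) with limma, 5 of the 9 members were called, 3 higher (TAP1, TAP2 and ERAP1) and 2 lower (B2M and TAPBP), where 59.1% of all tested genes were called, 44.2% higher and 14.9% lower. TPM values did not overlap between groups for 6 members, against 65.2% of all tested genes. TAPBP went from 77.0 ± 0.66 to 47.7 ± 4.74 TPM, a log2 difference of -0.68 ± 0.075 (limma adjusted p = 4.82e-05). ERAP1 went from 3.95 ± 0.63 to 9.24 ± 2.43 TPM, and TAP2 from 21.8 ± 1.54 to 34.99 ± 5.77 TPM, a log2 difference of 0.65 ± 0.11 (limma adjusted p = 0.000752). These 3 genes and B2M kept their direction and their call on both scales.

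HLA-B, HLA-E and NLRC5 lost their calls in TPM, where their log2 differences were -0.02 ± 0.062, -0.10 ± 0.072 and -0.14 ± 0.075 (limma adjusted p of 0.833, 0.253 and 0.135). TAP1 was called higher in TPM, at 0.24 ± 0.081 (limma adjusted p = 0.0268), and HLA-C turned to a positive value that was not called, 0.13 ± 0.097. Set against the TPM median of all genes, HLA-B was at -0.21, HLA-E at -0.30, NLRC5 at -0.34, B2M at -0.37, HLA-C at -0.06 and TAP1 at 0.05, values close to those of the counts. When TPM was rescaled without mitochondrially encoded genes, HLA-B, HLA-E and NLRC5 were called lower again (-0.20, -0.29 and -0.32; limma adjusted p of 0.0202, 0.00711 and 0.0058) and TAP1 was not called (0.06, limma adjusted p = 0.557). HLA-B, HLA-E and NLRC5 thus had negative values under each scaling tried, but whether they were called depended on the scaling; TAPBP, ERAP1, TAP2 and B2M were called in the same direction under each.

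**Figure D3:**
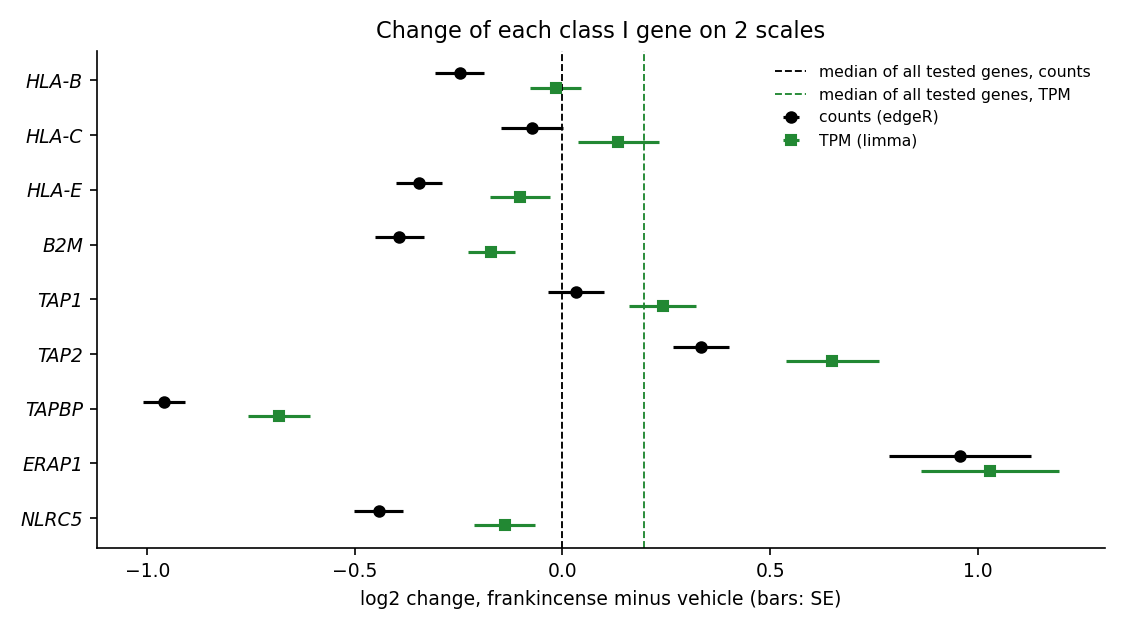
Log2 change of each gene (x axis, frankincense minus vehicle, bars are SE) from counts with edgeR (circles) and from log2(TPM + 1) with limma (squares), with the median of all tested genes on each scale as a dashed line. TPM values lie to the right of count values for every gene, with the smallest step for ERAP1 (0.96 to 1.03).

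Ratios inside a library do not depend on that scaling. B2M stood at 2.62, 2.64 and 2.83 times the summed TPM of HLA-B, HLA-C and HLA-E under vehicle and at 2.49, 2.35 and 2.24 times after extract, a log2 difference of -0.19 with groups that did not overlap (exact permutation p = 0.1). HLA-C made up 26.6% ± 0.23 of that sum under vehicle and 28.8% ± 1.64 after extract (SD, n = 3), HLA-B 67.3% ± 0.24 and 65.6% ± 1.60, and HLA-E 6.20% ± 0.34 and 5.68% ± 0.074. None of these 3 shares overlapped between groups (exact permutation p = 0.1 for each of the 5 ratios tested, 0.1 after Benjamini-Hochberg adjustment), and none can reach 0.05 in this design. The HLA-C share was highest in frankincense replicate 3, at 30.7% against 27.7% and 27.9%. Without that library the log2 difference of the HLA-C share was 0.067 in place of 0.114, and that of the HLA-B share -0.017 in place of -0.037. The log2 difference of the HLA-E share was -0.078 without vehicle replicate 3, in place of -0.123.

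**Figure D4:**
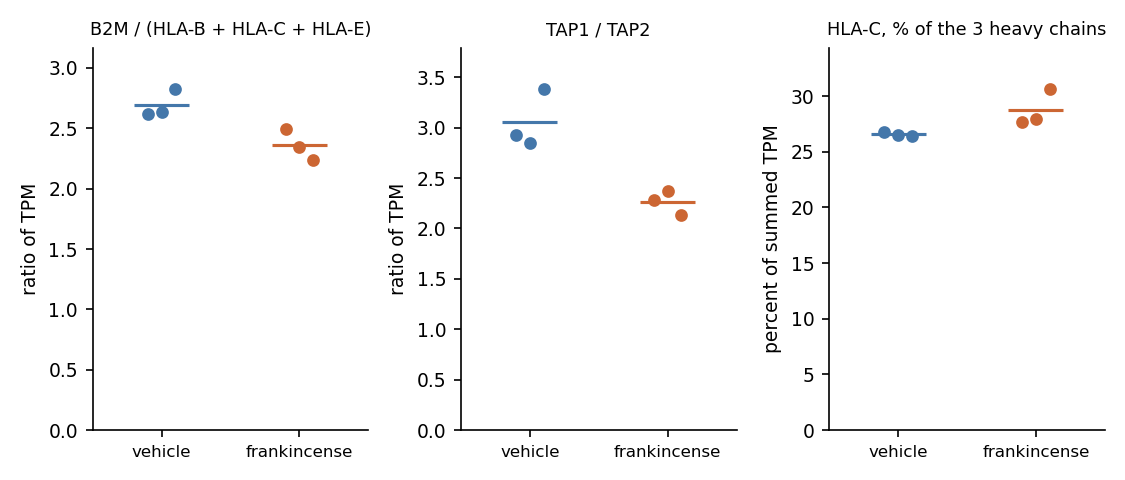
Ratio of B2M to the summed heavy chains (left), ratio of TAP1 to TAP2 (middle) and HLA-C as a percent of the summed heavy chains (right), each from TPM within a library; points are libraries and bars are means of 3. In each panel the 2 groups do not overlap.

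RSEM also gives an effective length, the mean over a gene's transcripts weighted by their abundance, after each length is adjusted for fragment size. It moves when transcript use moves, and it can also move with the fragment sizes of a library. Which of these moved was not tested. TAP2 alone had lengths that did not overlap between groups, 2741 to 3039 bases under vehicle and 2611 to 2680 bases after extract, a change of -6.92% (exact permutation p = 0.1), where 36.2% of all tested genes had no overlap. Without vehicle replicate 3 the number of members with no overlap was 4, and without frankincense replicate 1 or 2 it was 3. Ranges of any gene separate more easily with a library left out, and the share over all tested genes is not given for those settings. With all libraries, lengths of the other 8 overlapped, with mean changes from -3.68% (NLRC5) to 1.97% (HLA-C).

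Reads of related or overlapping genes can be exchanged by the counting, so the sequence shared with other genes was measured on GENCODE 29 transcripts. Of 100-base windows, 0% were shared for B2M, NLRC5 and TAPBP, 0.13% for HLA-C, 0.49% for HLA-E, 3.18% for ERAP1, 7.26% for TAP1, 12.88% for HLA-B and 30.33% for TAP2. For TAP2, TAP1 and HLA-B the partner was an annotated gene lying over them (AL669918.1, PSMB8-AS1 and AL671883.2). With 50-base windows 2.48% of HLA-B windows were also found in HLA-C. Summed with its overlapping partner, TAP2 changed by 0.31 ± 0.069, HLA-B by -0.25 ± 0.059, ERAP1 by 0.93 ± 0.17 and TAP1 by -0.09 ± 0.062, and each stayed on its side of the threshold (edgeR adjusted p of 0.00118, 0.00209, 0.00205 and 0.209). The partners of HLA-B, ERAP1 (AC008906.1) and TAP2 had only 6 to 17, 3 to 12 and 18 to 64 counts per library. The members themselves had at least 23112, 330 and 1155 counts, so these sums could hardly differ from the member alone. CAST, found in 1.24% of the 100-base windows of ERAP1, was not added. The sign of TAP1 turned with the antisense RNA PSMB8-AS1 included. That sum adds all PSMB8-AS1 counts, also those from sequence that TAP1 does not share. Strand-specific counting is not stated, and reads from the shared 7.26% of TAP1 windows cannot be told apart. HLA genes are highly polymorphic, so levels of HLA-B, HLA-C and HLA-E, counted on the reference build, are uncertain.

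TAP1 and PSMB9, an interferon-inducible catalytic subunit of the immunoproteasome, start back to back on chromosome 6, with 488 bases between their RefSeq starts at 32853704 and 32854192. PSMB9 was at 62.3, 61.1 and 56.9 CPM under vehicle and at 43.3, 46.4 and 37.7 CPM after extract, with no overlap, and fell by 0.50 ± 0.072 (edgeR adjusted p = 3.33e-05), while TAP1 was not called. The difference between the pair was not tested.

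The other genes of the pathway were read from 8 lists of 66 genes, 60 of them tested, of which 24 were higher and 23 lower, 78.3% against the 62.9% called of all genes. Beside the counts of each list stand 31.9% higher and 31.0% lower over all tested genes. The immunoproteasome makes peptides suited to class I molecules. Of its 3 catalytic subunits and 2 activator subunits, 4 of 5 were lower and 0 higher, with a median log2 change of -0.28. Beside PSMB9 these were PSME1 (-0.56 ± 0.063), PSME2 (-0.28 ± 0.064) and PSMB8 (-0.25 ± 0.051); PSMB10 was at -0.04 ± 0.066 (edgeR adjusted p = 0.575). In TPM only PSMB9 and PSME1 were called lower, and PSMB10 was called higher at 0.32 (limma adjusted p = 0.00195). Among the catalytic subunits that these replace, PSMB5 fell by 0.36 ± 0.049 and PSMB6 by 0.13 ± 0.053, and PSMB7 rose by 0.17 ± 0.067. The calls of PSMB6 and PSMB7 lie near the threshold (edgeR adjusted p of 0.0391 and 0.0348), and in TPM PSMB7 alone was called, higher. Without any 1 of the vehicle libraries or of frankincense replicates 1 and 2 the list had 0 higher, and without any 1 library other than frankincense replicate 2 it had 1 lower.

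Chaperones and editing factors that help fold heavy chains and load peptides were higher in 4 and lower in 2 of 8, with a median of 0.31, and 5 and 0 in TPM. The TPM shares over all tested genes were 44.2% higher and 14.9% lower. Calnexin (CANX), which holds new heavy chains, rose from 450, 442 and 479 CPM to 1275, 1281 and 1635 CPM, a log2 change of 1.61 ± 0.092 (edgeR adjusted p = 1.59e-08). PDIA3, which encodes ERp57, the disulfide partner of tapasin, rose by 0.85 ± 0.070, and CALR, calreticulin, by 0.62 ± 0.061 (edgeR adjusted p of 9.09e-08 and 5.54e-07). PRKCSH, the beta subunit of the glucosidase that trims the glycan read by both lectins, went the other way, by -0.43 ± 0.057. These proteins also serve other glycoproteins. Tapasin, which works in the same complex as PDIA3 and CALR, fell in the same libraries.

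Of 10 genes of quality control and turnover, 8 were higher and 1 was lower, with a median of 0.34, and 9 and 0 in TPM. Over all tested genes 44.2% were higher and 14.9% lower in TPM. SYVN1, the ligase HRD1 that disposes of misfolded heavy chains, rose by 1.10 ± 0.065, UBE2J1, its conjugating enzyme, by 0.83 ± 0.064, and WWP2, a ligase in a complex that removes class I from the surface, by 0.55 ± 0.057. MARCHF9, a membrane ligase that can take class I to lysosomes, was lower at -0.38 ± 0.068. The edgeR adjusted p of these 4 lay between 2.45e-09 and 0.000222.

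Of 13 factors that bind class I promoters, 3 were higher, 3 lower and 7 not called, with a median of 0.12, and 9 were higher and 2 lower in TPM. In TPM 44.2% of all tested genes were called higher and 14.9% lower. With TPM rescaled without mitochondrially encoded genes, 4 factors were higher and 3 lower. Without frankincense replicate 3 the number higher was 5, and with library size scaling it was 7. IRF2, an interferon regulatory factor, fell by 0.73 ± 0.064 (edgeR adjusted p = 1.57e-07) and NFYB, an NF-Y subunit, fell by 0.46 ± 0.090. ATF1, a CREB family member, rose by 0.27 ± 0.064. IRF1 was at 0.06 ± 0.062 and RFX5 at 0.08 ± 0.056 (edgeR adjusted p of 0.412 and 0.227), and both were called higher in TPM. Of the receptor and kinases of interferon-gamma, 3 of 4 were higher and 1 lower: IFNGR1 rose by 0.49 ± 0.074 and JAK2 by 0.63 ± 0.088, while IFNGR2, the signalling chain of the receptor, fell by 0.72 ± 0.062, and all 3 were called in the same direction in TPM.

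Other class I and class I-like heavy chains were higher in 5 and lower in 6 of 12, with a median of -0.33. CD1D, which presents lipids, fell by 2.29 ± 0.24 from 1.54 ± 0.18 to 0.46 ± 0.14 TPM, and HFE, a regulator of iron uptake that pairs with B2M, by 0.92 ± 0.077. ULBP1, a stress ligand of the NKG2D receptor that does not bind B2M, rose by 2.40 ± 0.29 from 32 counts over the vehicle libraries to 170 over the treated ones. The NKG2D ligands MICA and MICB, named after their values were seen, rose by 0.42 ± 0.071 and 0.35 ± 0.064, and HLA-F, named likewise, fell by 0.43 ± 0.057 (edgeR adjusted p of 0.000122, 0.000235 and 1.13e-05). NKG2D ligands did not all rise. ULBP2 was at 0.36 ± 0.099 and ULBP3 at -0.54 ± 0.13 (edgeR adjusted p of 0.00536 and 0.00195), and ULBP3 was not called in TPM. Class II genes were scarce: 5 of 11 could be tested, 4 of them lower and 0 higher, against 31.0% and 31.9% of all tested genes. HLA-DRA had 0 counts under vehicle and 5 after extract over the 3 libraries. CD74, the invariant chain, fell by 0.95 ± 0.15 from 4.87 ± 0.49 to 3.02 ± 0.32 TPM, CIITA, the class II counterpart of NLRC5, by 0.66 ± 0.16 and HLA-DPB1 fell by 0.52 ± 0.14; the call of CIITA was absent in TPM (limma adjusted p = 0.0959).

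**Figure D5:**
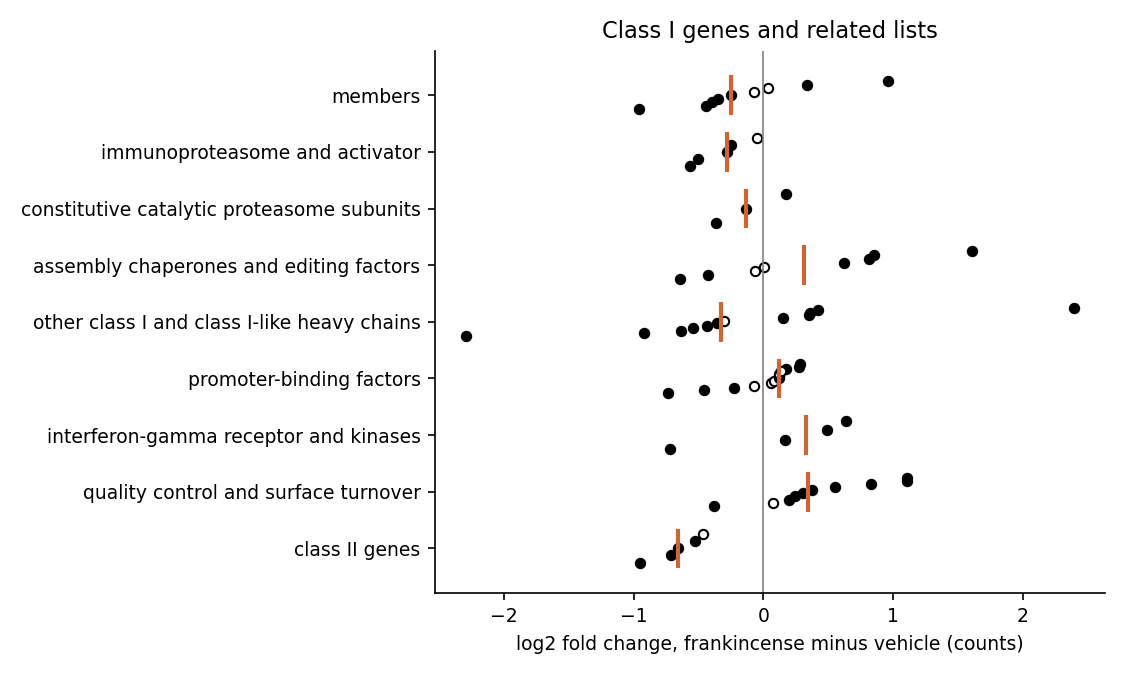
Log2 fold change on the count scale (x axis, frankincense minus vehicle) of each tested gene of the 9 members and 8 related lists; filled points were called by edgeR, open points were not, and the vertical bar is the list's median. The members spread from -0.96 to 0.96, the immunoproteasome lies at or below 0, and quality control genes lie mostly above it.

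Stromal markers moved with the treatment: 6 of 6 were lower (5 in TPM), and their summed level went from 4259 to 4367 TPM under vehicle to 2860 to 3041 TPM after extract. Of 6 tested epithelial markers 4 were lower and 2 higher, with sums of 1604 to 1640 and 1379 to 1431 TPM. Over all tested genes 31.0% were lower and 31.9% higher by counts, and 14.9% were lower in TPM. The part of these shifts in the class I values was not tested.

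Of the members, 6 lie in the MHC region of chromosome 6. Of 99 other tested genes whose lowest coordinate lay within 500 kb of that of one of them, 26 were higher, 40 lower and 33 not called, with a median log2 change of -0.19, against 31.9% higher and 31.0% lower over all tested genes, whose median was -0.0016. Around TAPBP, 17 of 33 such neighbours were lower and 7 higher (median -0.30). The same counts were 17 and 7 of 38 for HLA-B and for HLA-C (median -0.24), and 11 and 3 of 23 for TAP1 and for TAP2 (median -0.33). Within each pair the windows nearly coincide, so these are not separate neighbourhoods. The HLA-B window is set on its lowest coordinate, 31269491, which lies within the annotated span of HLA-C and away from the HLA-B RefSeq start. Around HLA-E the balance was the other way, with 8 of 31 lower and 12 higher (median -0.02). Elsewhere, 5 of 11 neighbours of B2M were lower and 4 higher, 1 of 6 neighbours of ERAP1 was lower and 2 higher, and 3 of 23 neighbours of NLRC5 were lower and 13 higher (medians of -0.14, 0.001 and 0.16). These counts are a description and were not tested against other regions.

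The genes whose centred log2 CPM lay closest to that of HLA-B over the 6 libraries, among 11546 genes compared, were LRPAP1, GGA1, CENPI, MARVELD1 and PHKA2, at Euclidean distances of 0.031 to 0.054 and log2 changes of -0.22 to -0.27. Those closest to TAP1 were RTL6, TMCO3, ZNF765, MAN1A2 and DCBLD2, at distances of 0.045 to 0.058. None of these 10 genes belongs to a class I list.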

How the data were processed

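The submitters' processing notes name STAR, GRCh38 and RSEM 1.3.1; the annotation is not given in the sources used here. The authors deposited RSEM expected counts, TPM, FPKM and effective lengths, per the file headers. Symbols for 60419 of the 60616 identifiers came from the name table; positions are from GENCODE 29. A total of 0 columns of per-sample values went unused.

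Expected counts were rounded and tested with edgeR 4.0.16 (R 4.3.3): filterByExpr, TMM, robust quasi-likelihood fit, two-sided, Benjamini-Hochberg adjustment over 16719 genes; the SE is the absolute log2 change over the root of F. CPM values are scaled by the same TMM factors. TPM was tested as log2(TPM + 1) with limma 3.58.1, a scale that understates changes of low genes. Ratios and lengths had exact permutation tests. The fit was tested on simulated data with a single dispersion. It recovered 88.5% of 87 genes changed by 0.5 log2 units and 99.1% of 113 changed by 1, with 3 false calls. Far fewer genes changed there than were called here, so error control under these conditions was not tested. Libraries of a group differed by more than counting noise (chi-square per degree of freedom of 3.83 to 13.8), so none was counted as a duplicate.

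The members and lists were chosen with earlier results of these data known. Named genes are all members; in each list the 3 called genes with the smallest adjusted p and 1 against the majority; the immunoproteasome, IRF1, CIITA, RFX5, CALR, CANX, PDIA3, TAPBPL and ERAP2; and the 5 genes nearest to HLA-B and to TAP1. Some listed genes are not reported here by name. Alternatives were other scalings, filters, DESeq2 1.42.0, limma-voom, TPM settings, a replicate block and leaving out each library. Sums with overlapping genes were added after seeing the data.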

Additional observations from a re-analysis of the deposited data

How the results depend on the processing

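TAPBP, ERAP1, TAP2 and B2M kept direction and call under every alternative run for them, with log2 changes from -1.0033 to -0.6828, 0.76 to 1.19, 0.26 to 0.67 and -0.44 to -0.17. On log2(TPM + 1), log2(TPM + 0.1) and unfiltered log2(TPM + 1), lower members were 2, 2 and 2 against 5 by counts, lower genes of the 8 lists 12, 12 and 10 against 23, and lower genes overall 2491, 2490 and 2246 against 5177; the TPM median of all genes lay 0.20 above that of the counts. On log2(TPM + 1) 7389 genes were called higher and 2491 lower, against 5332 and 5177 by counts. TAP1 missed the threshold on unfiltered TPM (adjusted p = 0.0734 with limma). DESeq2 called 4848 genes higher and 4701 lower. The log2 difference of the TAP1 to TAP2 ratio was -0.30 from counts without length correction, against -0.43 in TPM. The number of members whose lengths did not overlap ranged from 1 to 4 when 1 library was left out: 4 without vehicle replicate 3, and 3 without frankincense replicate 1 or 2. Ranges separate more easily with a library left out, and no share over all tested genes is given for those settings. With 1 library left out, called members were 2 higher and 5 to 6 lower.

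The titles number replicates 1 to 3 in both groups, and deviations of same-numbered libraries correlated at 0.090, 0.086 and 0.091. Not every library correlated best with its own number. Weak correlations of deviations from means of 3 libraries cannot settle whether the numbers pair the libraries. With the replicate number as a block, 5347 genes were called higher and 5244 lower, against 5332 and 5177, and the members called stayed at 2 higher and 5 lower. ERAP1 changed by 0.95 ± 0.086 with the block (edgeR adjusted p = 1.1e-07), against 0.96 ± 0.17 without it.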
